A study of Homo sapiens with 20 samples.

Results

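The open chromatin of H1299 human lung cancer cells was described from 2 lists of Omni-ATAC-seq peaks, one of Mock-treated and one of decitabine-treated cells. All peaks of both lists were taken, 45354 from Mock and 63541 from decitabine (DAC), which are 108895 of the 591387 peaks in the 8 lists of the series. Mock cells received phosphate-buffered saline, and DAC cells received 100 nM decitabine for 72 h, followed by 3 days without drug. H1299 is an established non-small cell lung cancer line derived from a lymph node metastasis. The series holds such pairs of peak lists for A549, H1299, CL1-5 and PC9 cells, and mRNA-seq of these and of CL1-0 and H1792 cells, in 12 libraries. There was 1 library for each line and treatment, so no difference between Mock and DAC could be tested and every value below describes these libraries.

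Decitabine is a cytidine analog that is built into replicating DNA and traps DNA methyltransferases, so that methylation is lost as cells divide. In ATAC-seq a transposase inserts adapters where DNA is not wrapped in tightly packed nucleosomes, and peaks mark active promoters, enhancers and sites bound by CTCF. Many silent CpG-rich promoters and most transposable elements, among them the long terminal repeats (LTRs) of endogenous retroviruses, are methylated in somatic cells. AP-1, a dimer of FOS and JUN family proteins, is a major factor at enhancers of epithelial and mesenchymal cancer cells.

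A peak that shared at least 1 bp with the other list was called shared, and the others DAC-only or Mock-only. The sequences that follow are examples of strong regions away from transcription start sites, and then of promoters. The first is a DAC-only region over 3000 bp from a transcription start site (TSS), shown as an example of the strong DAC-only regions that hold several copies of the 8-base unit CACCAATC. It is 200 bases of the plus strand of hg19 around the middle of the peak, and capitals mark the unit, which reads GATTGGTG where it lies on the other strand.
DAC-only, listed for PDCD1 (chr2:242778191-242778390): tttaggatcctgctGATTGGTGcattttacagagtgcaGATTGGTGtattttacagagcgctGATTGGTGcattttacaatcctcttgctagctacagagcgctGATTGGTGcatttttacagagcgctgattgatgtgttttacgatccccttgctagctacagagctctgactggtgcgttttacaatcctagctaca

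The region held 4 copies in 200 bases, and its peak had a fold enrichment of 5.52. Tandem units with a CCAAT box, the sequence bound by the trimeric factor NF-Y, are known from the LTRs of the ERV9 family of endogenous retroviruses, which also carry promoter activity. No repeat annotation was used here, so no region was assigned to a repeat family. The second set shows the 3 Mock-only regions with the highest fold enrichment among those picked from that hold the AP-1 motif TGANTCA, which is in capitals. Regions over 3000 bp from a TSS on the standard chromosomes other than 8 and Y were picked from.
Mock-only, listed for TRIOBP (chr22:38109673-38109872): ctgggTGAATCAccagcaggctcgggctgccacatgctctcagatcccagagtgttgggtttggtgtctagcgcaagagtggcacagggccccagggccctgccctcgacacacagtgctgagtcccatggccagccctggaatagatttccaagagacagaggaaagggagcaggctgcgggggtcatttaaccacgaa
Mock-only, listed for XIRP2 (chr2:167997287-167997486): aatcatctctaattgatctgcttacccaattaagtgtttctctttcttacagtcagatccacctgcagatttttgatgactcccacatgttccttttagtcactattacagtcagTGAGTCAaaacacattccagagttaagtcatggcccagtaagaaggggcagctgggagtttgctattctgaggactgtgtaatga
Mock-only, listed for SYT14 (chr1:210058088-210058287): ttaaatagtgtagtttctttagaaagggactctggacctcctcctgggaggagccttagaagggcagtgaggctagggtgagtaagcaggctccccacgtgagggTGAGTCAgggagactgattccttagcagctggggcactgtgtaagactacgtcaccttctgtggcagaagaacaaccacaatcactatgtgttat

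Each of the Mock-only regions held 1 copy. The third set shows 3 promoters with a DAC-only peak whose genes were near silent in Mock, and capitals mark the CG dinucleotides, where DNA methylation occurs.
DAC-only, promoter of MAGEB2 (chrX:30233504-30233703): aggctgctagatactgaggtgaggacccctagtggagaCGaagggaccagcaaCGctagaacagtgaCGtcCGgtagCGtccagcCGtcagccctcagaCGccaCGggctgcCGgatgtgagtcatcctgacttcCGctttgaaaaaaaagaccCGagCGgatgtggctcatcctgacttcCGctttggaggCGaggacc
DAC-only, promoter of MAEL (chr1:166944849-166945048): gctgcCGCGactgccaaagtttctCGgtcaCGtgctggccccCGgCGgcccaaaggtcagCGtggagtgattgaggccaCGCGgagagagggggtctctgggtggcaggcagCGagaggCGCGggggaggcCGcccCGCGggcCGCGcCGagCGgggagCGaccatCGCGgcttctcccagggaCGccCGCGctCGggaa
DAC-only, promoter of LXN (chr3:158390297-158390496): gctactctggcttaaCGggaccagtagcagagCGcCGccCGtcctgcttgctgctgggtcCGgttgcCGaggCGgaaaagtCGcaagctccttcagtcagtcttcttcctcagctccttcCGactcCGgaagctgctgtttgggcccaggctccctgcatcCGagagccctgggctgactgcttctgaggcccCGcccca

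The windows held 14 (MAGEB2), 26 (MAEL) and 12 (LXN) CG dinucleotides in 200 bases, or 7, 13 and 6 per 100 bases. The median over all promoter peaks was 2 per 100 bases in DAC-only peaks and 9 in shared peaks, so that these 3 were richer in CG than most newly listed promoters.

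Of the DAC peaks, 31199 had no Mock peak (49.1%), and 12846 Mock peaks had no DAC peak (28.3%). The shared regions numbered 32508 in the Mock list and 32342 in the DAC list. The peaks covered 29.0 Mb in Mock and 41.4 Mb after DAC, and those in 1 list only covered 4.91 Mb and 14.1 Mb, which is 16.9% and 34.0% of the covered length. The ratio of DAC to Mock peak numbers was 1.4 in H1299, against 1.33 in A549, 1.28 in the libraries labelled PC9 and 1.14 in those labelled CL1-5. In these last 2 pairs the names of the peaks and the labels are exchanged, and the labels are used here. The DAC-only share was likewise 49.1% in H1299 and 44.2%, 43.3% and 38.6% in the others.

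The fold enrichment of a peak is relative to the background of its own library, and the read depth of the libraries is unknown here. Among peaks with a −log10 q-value between 1.4 and 1.6, the median fold enrichment was 3.09 in the H1299 Mock list and 2.80 in the DAC list, so a peak of the same significance needed less enrichment after DAC. The ratio of these medians was 0.907 in H1299, 0.965 in A549, 0.947 in the libraries labelled PC9 and 1.01 in those labelled CL1-5. The part of sequencing depth in the gain of peaks was not tested. With equal numbers of peaks, the strongest 45354 of each list, 39.9% of the DAC peaks and 39.6% of the Mock peaks were without a partner, and equal numbers make these shares nearly equal by construction.

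The peaks in 1 list only were narrow and weak. The median width was 372 bp for DAC-only peaks and 743 bp for shared peaks of the DAC list, and 327 bp for Mock-only peaks and 637 bp for shared peaks of the Mock list. The median fold enrichment was 2.87 for DAC-only and 3.87 for shared peaks, and 3.07 for Mock-only and 4.32 for shared peaks in Mock. A q-value under 0.01 was reached by 31.8% of the DAC-only and 85.9% of the shared DAC peaks, and by 25.4% of the Mock-only and 82.0% of the shared Mock peaks. Peaks of at least 1000 bp made up 4.26% of the DAC-only peaks and 31.4% of the shared ones.

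**Figure D1:**
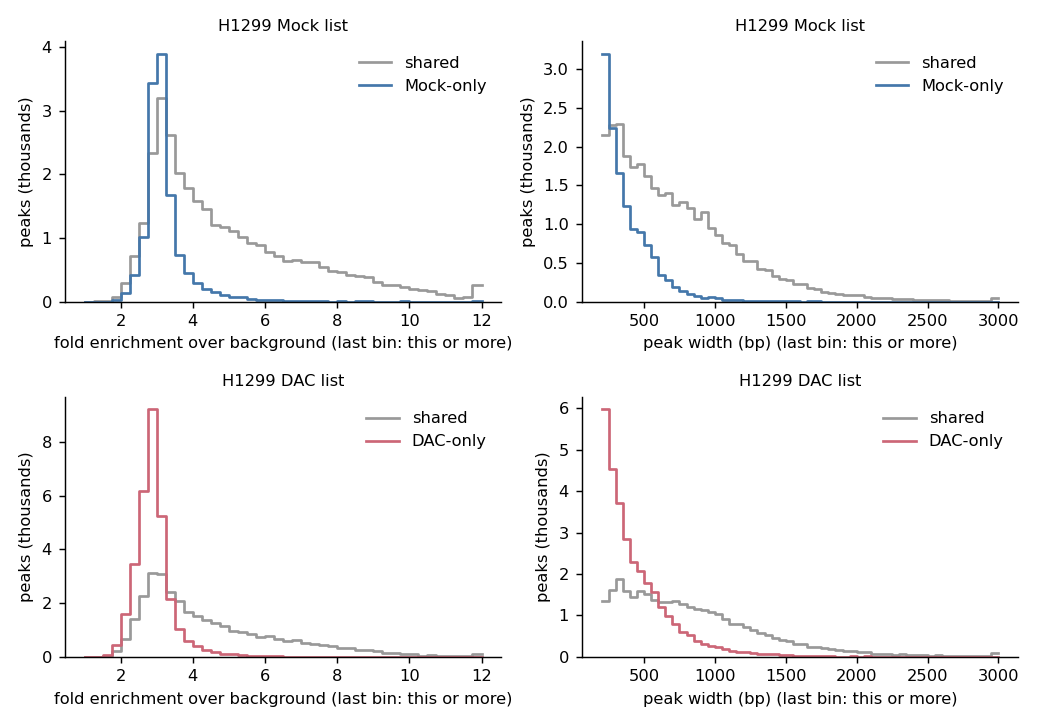
Distribution of fold enrichment over background (left, no unit) and width in bp (right) of H1299 peaks in the Mock list (top) and the DAC list (bottom), as the number of peaks per bin, counted in units of 1000, with shared peaks in grey and peaks of 1 list in colour. The peaks of 1 list gather at low values (median fold enrichment 2.87 after DAC and 3.07 in Mock) while the shared peaks reach farther right.

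The strongest regions were nearly all open under both treatments. Of the 1000 DAC peaks with the highest fold enrichment, 9 had no Mock peak of any strength, and of the 1000 strongest Mock peaks 4 had no DAC peak. Among the strongest 10000 these shares were 2.72% for DAC and 1.29% for Mock, and among the strongest 30000 they were 23.4% and 15.3%. The Mock list is shorter than the DAC list, which favours more DAC peaks without a partner before any are counted. With equal numbers on both sides the shares were nearly equal, as equal numbers require, at 15.3% for both at 10000 peaks and at 27.0% for Mock and 27.1% for DAC at 30000. A fold enrichment of at least 4 was reached by 1248 DAC-only peaks, of 16612 such DAC peaks, and by 1061 Mock-only peaks, of 19292 such Mock peaks, so the excess of DAC-only over Mock-only peaks lay mostly among weaker peaks.

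Most peaks of 1 list lay away from promoters. Of the DAC-only peaks 88.8% were over 3000 bp from the TSS of the gene they were listed for, against 54.1% of the shared DAC peaks, and of the Mock-only peaks 89.4%. A peak over the TSS itself was found for 36.7% of the shared regions, 2.12% of the DAC-only and 1.73% of the Mock-only peaks. By annotation, 40.7% of the DAC-only peaks were distal intergenic and 38.4% intronic, and the Mock-only peaks had much the same makeup, with 41.4% and 39.1%. The median distance to the TSS was 22725 bp for DAC-only and 5324.5 bp for shared DAC peaks. The gain was spread over the genome, with ratios of DAC to Mock peak numbers from 1.23 on chromosome 13 to 1.59 on chromosome 8, where 58.7% of the DAC peaks were DAC-only. Copy number differs between chromosomes in cancer lines and its part in these ratios was not tested.

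The strongest distal DAC-only peak was 318 bp wide in an intron of PCSK2, which encodes a prohormone convertase, at chr20:17296117-17296434, with a fold enrichment of 19.9. PCSK2 mRNA was at 0.0346 FPKM in Mock and 0.00535 after DAC, so this peak appeared in a gene that was near silent under both treatments. The others by this measure were listed for LINC01189 (fold enrichment 12), SS18 (10.2), ZBED9 (9.91, on an alternative haplotype sequence of the major histocompatibility region) and PPP2R5C (9.70). Of the distal Mock-only peaks, the strongest lay near CNTN5, which encodes a neuronal adhesion protein, at chr11:98223708-98223967 with a fold enrichment of 17.4. It was followed by peaks in an intron of TRIOBP (13.3), which encodes an actin-bundling protein, in an intron of DPP4 (12.5) and in an exon of ARMH3 (9.96). Of the peaks named here, those near SS18, PPP2R5C, TRIOBP and ARMH3 were listed for genes above 1 FPKM under both treatments, and ZBED9 was at 1.18 and 1.32 FPKM.

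Of the 5 genes with the most DAC-only peaks, RPTOR, ARID1B, RALYL and NTM span from 422 to 966 kb, and HS6ST1 spans 53.1 kb. NTM, which encodes a neural adhesion protein, had 35, ARID1B, a subunit of SWI/SNF remodelling complexes, 32, RALYL 31, RPTOR, a subunit of mTORC1, 28, and HS6ST1, a heparan sulfate sulfotransferase, 27. The same genes had 13, 13, 7, 7 and 8 Mock-only peaks. The genes with the most Mock-only peaks were ARID1B, NCOA2 and NTM with 13 each and AUTS2 and DIP2C with 12 each, and of these NCOA2 had 25 DAC-only peaks. NTM mRNA was at 4.16 FPKM in Mock and 1.73 after DAC, RPTOR at 9.02 and 5.38, and HS6ST1 at 4.03 in both, so none of these 3 was higher in mRNA after DAC.

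The sequence at the middle of distal regions differed between the lists. Among the 2000 strongest distal peaks of each class, the AP-1 motif was present in the central 200 bases of 17.8% of the Mock-only regions (356) and 6.95% of the DAC-only regions. In the 500 strongest, the shares were 23.2% and 4.20%, and over all distal peaks of 1 list 9.29% and 5.78%. Of the shared distal regions, 10.8% in the Mock list and 9.88% in the DAC list held it, and over all peaks of a list 7.78% of the Mock peaks and 6.18% of the DAC peaks held the motif. The TEAD motif CATTCC, bound by partners of YAP and TAZ that often sit beside AP-1, was in 14% of the Mock-only and 10.6% of the DAC-only regions, and the RUNX motif TGTGGTT in 5.6% and 3.65%. Over all peaks of the Mock and DAC lists TEAD was in 9.96% and 10.3%, and RUNX in 2.82% and 2.98%.

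The 8-base unit CACCAATC went the other way. It was present in 6.95% (139) of the 2000 strongest distal DAC-only regions and in 1.05% (21) of the Mock-only regions. The exact 95% binomial intervals, which cover counting error only, were 5.87% to 8.15% and 0.651% to 1.6%. The unit was chosen after seeing these data, so the intervals do not test its excess in DAC-only regions. Over all distal peaks of 1 list it was in 546 DAC-only and 90 Mock-only regions (1.98% and 0.785%), against 2.23% of the shared distal regions of the DAC list and 2.01% of those of the Mock list, so over all strengths DAC-only regions did not hold it more often than shared ones. Over all peaks it was in 1.74% of the DAC list and 1.23% of the Mock list. Of the 546 regions, 304 (55.7%) held at least 2 copies in 200 bases, and the highest number was 5. The plain CCAAT box, which is part of this unit, was in 31.4% of the strongest DAC-only and 21.6% of the Mock-only regions. The forkhead motif TGTTTAC was in 4.4% and 2.65%. Over all peaks of the Mock and DAC lists CCAAT was in 19.8% and 20.6%, and the forkhead motif in 1.99% and 2.44%. Of the whole DAC list, 1104 peaks held the unit and 55.1% of these were DAC-only, against 17.3% Mock-only of the 556 such Mock peaks. Over all peaks these shares were 49.1% and 28.3%, so the first is near its background. Reads from repeated sequence can map to several places, the sources name no filter on mapping quality, and its part in these counts was not tested.

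The 3 other lines gave the same direction for the unit in A549 (7.20% of the DAC-only and 1.15% of the Mock-only regions) and in the libraries labelled PC9 (10.1% and 0.7%), while those labelled CL1-5 had 0.950% and 0.550%. The AP-1 motif was also less frequent in DAC-only than in Mock-only regions in the libraries labelled PC9 (11.5% and 30.8%) and in A549 (13.8% and 16.6%), but not in those labelled CL1-5 (25.2% and 22.1%). Of the H1299 DAC-only distal regions with the unit, 58.4% (319 of 546) overlapped a DAC-only peak of another line, and 21 did so in all 3. The share was 35.3% over all distal H1299 DAC-only peaks. Of the Mock-only regions with the AP-1 motif among the 2000 strongest, 84.6% overlapped a Mock peak of another line, against 68.9% of all 2000 and 43.3% of all distal Mock-only peaks.

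Regions open under both treatments, which the overlap rule had not divided, were compared by rank, and those with the unit moved up by more than all shared distal regions and those with the AP-1 motif by less. Each shared Mock peak was set against its strongest overlapping DAC peak, and both were given their percentile by fold enrichment in their own list. Shared distal regions went up by a median of 6.18 percentiles. The DAC list holds more weak peaks and the strongest overlapping one was taken, so a shift upwards over all regions is built into this measure. Those with the unit (352) went from a median percentile of 48.1 to 73.0, with a median change of 16.5, and 86.1% of them went up. Those with the AP-1 motif (1889) went from 60.9 to 65.1, with a median change of 1.77, and 58.3% of them went up. Among regions that started between the 40th and 60th Mock percentile, the median change was 21.4 with the unit, 1.83 with the AP-1 motif and 9.18 over all. Over all starting ranks, the change with the forkhead motif was 9.52, and with the core of the CTCF motif it was 6.32, close to that of all shared distal regions. Regions with the CTCF core started higher, at a median percentile of 65.3. Between the 40th and 60th Mock percentile the change was 12.5 with the CTCF core and 15.1 with the forkhead motif, against 9.18 over all. At shared promoters, regions with the unit (108) started at percentile 89.0 and all promoters at 77.0, which leaves less room above, and their median changes were 1.89 and 3.62.

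Of 24 AP-1 and TEAD family genes with a mean of at least 0.1 FPKM, 4 (16.7%) were at least 2-fold higher in mRNA and 0 at least 2-fold lower. All 24 were at 0.1 FPKM or more in Mock, and of all genes at that level 6.83% were at least 2-fold higher. Over all genes with such a mean, 4.43% were at least 2-fold lower. FOSL1, the most abundant AP-1 gene of the line, was at 189 FPKM in Mock and 151 after DAC. JUN was at 12.8 and 19.3, JUNB at 20.1 and 24.5, JUND at 26.2 and 21.5, and FOS at 0.486 and 1.86. TEAD4 was at 32.9 and 47.2. Of the subunits of NF-Y, NFYA was at 10.7 and 9.55 FPKM, NFYB at 4.06 and 4.96 and NFYC at 11.7 and 11.3.

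Genes listed for distal DAC-only regions were higher in mRNA about as often as all genes. mRNA levels were compared as log2(FPKM + 0.1), a scale that understates the change of low genes, over genes whose 2 H1299 libraries averaged 0.1 FPKM or more. Of 15531 such genes, 12.7% were at least 2-fold higher and 4.43% at least 2-fold lower after DAC. Of the 7317 genes listed for a distal DAC-only region 11.6% were at least 2-fold higher, of the 4531 listed for a distal Mock-only region 10.7%, and of the 378 listed for a DAC-only region with the unit 11.1%. Within 50 kb of such a unit region, 14 genes were at least 2-fold higher with at least 1 FPKM after DAC, a set picked after their values were seen. They include S100A6, which encodes a calcium-binding protein, at 0.180 and 10.4 FPKM with a region 13745 bp from its TSS, and DNAH3, a dynein heavy chain gene, at 0.00234 and 3.64 with a region at -3880 bp. CCR4, a chemokine receptor gene, was at 0 and 2.65 FPKM with a region at -47474 bp, and ETV7, an ETS factor gene induced by interferon, at 0.0737 and 2.26. SLC16A12, which encodes a creatine transporter, was at 1.32 and 13.1.

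At promoters, a gene was counted as gained where only the DAC list had a peak within 3000 bp of its TSS and listed for it, and as lost where only the Mock list did. Of 22151 genes with a symbol in the mRNA table, 1365 gained such a peak (6.16%), 705 lost one (3.18%), 12219 had one in both lists and 7862 in neither. Each peak is listed for 1 gene, so a peak over a shared promoter can pass from one neighbour to the other when its borders shift. In 1110 of the gained genes (81.3%) and 460 of the lost genes (65.2%) the promoter region itself overlapped no peak of the other list. With the strongest 45354 peaks of each list, the order turned, with 825 gained and 1585 lost. By the TSSs of the reference annotation, 552 of the gained and 374 of the lost genes had a peak in both lists.

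Genes that gained a promoter peak were more often higher in mRNA than genes with a peak in both lists, and about as often as genes with no peak at all. Of 771 gained genes past the filter, 206 (26.7%) were at least 2-fold higher, against 7.39% of the 10872 genes with a peak in both, 15.8% of the 400 lost and 25.8% of the 3488 with none. The median log2 difference was 0.30 in gained, 0.04 in both, 0.18 in lost and 0.29 in genes without a peak, and 0.09 over all. With genes at or under 3 reads in a library set to that limit these medians were 0.33, 0.04, 0.20, 0.32 and 0.09. In the 538 genes whose gained region was new, 34.8% were at least 2-fold higher and the median log2 difference was 0.43, while the 233 whose region was already in the Mock list under another gene had 8.15% and 0.11. Lost genes whose region was gone were also often higher, at 27.2% of 180.

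These classes differ in their level in Mock. The median Mock FPKM was 4.70 with a peak in both, 0.350 with a new gained region and 0.807 with none. Among genes with a Mock FPKM from 1 to 10, 15.3% of the 131 genes with a new region were at least 2-fold higher, against 4.49% with a peak in both, 5.26% of the lost and 7.79% with none. From 0.1 to 1 FPKM the shares were 21.7%, 15.1%, 12.1% and 15.0%. Below 0.1 FPKM a gene could pass the filter only by a higher level after DAC, and the shares were 83.6%, 73.8%, 77.1% and 88.3%. At 10 FPKM or more, 2 of 46 genes with a new region were at least 2-fold higher (4.35%), and 5.25% of those with none.

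**Figure D2:**
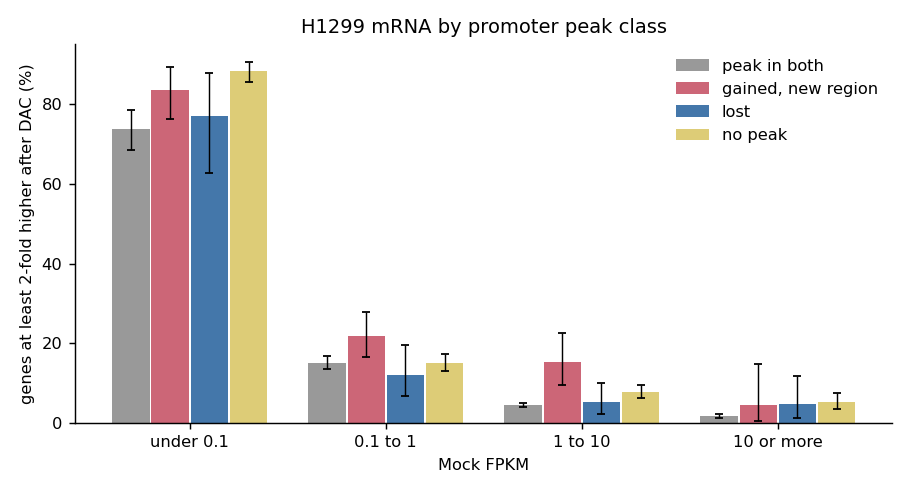
Percent of genes at least 2-fold higher in H1299 mRNA after DAC, by Mock FPKM (horizontal axis) and by promoter class, with exact 95% binomial intervals that cover counting error only. Genes with a new promoter region stand highest from 0.1 to 1 FPKM (21.7%) and from 1 to 10 FPKM (15.3%), and below 0.1 FPKM every class lies above 70% because of the filter.

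Of the gained genes, 88 were at least 2-fold higher with at least 1 FPKM after DAC. Of the 10 with the highest fold enrichment, the peaks of NOP16, LOH12CR2, FRMD6-AS1, HESX1, RMRP, ANLN and DDX43 (fold enrichment 7.19 to 5.87) overlapped a Mock peak that was listed elsewhere, so that these regions were open in Mock as well. ANLN, which encodes the cytokinesis protein anillin, was at 13.4 and 28.5 FPKM, and DDX43, a cancer testis helicase gene, at 1.13 and 3.71. LINC00624 and LXN, also among the 10, had a new region. LINC00624 was at 0.0126 FPKM in Mock and 1.84 after DAC, with a peak of fold enrichment 5.53 over its TSS. LXN, which encodes the carboxypeptidase inhibitor latexin, had 0 reads in Mock and 94 after DAC (1.18 FPKM), at least 33.9-fold higher against a floor of 3 reads, with a peak of 5.49. Reads in these libraries are mostly even in number (85.5% of genes with 1 to 20 reads in Mock), so the floor is a loose limit.

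The next genes with a new region, chosen after their values were seen, include several that were near silent in Mock. IL18, which encodes a cytokine that activates T and NK cells, was at 0.246 FPKM in Mock and 7.96 after DAC, with a new peak of fold enrichment 4.14 over its TSS. CT55, a cancer testis gene, was at 0.141 and 5.04 FPKM with a peak of 3.8, and SLC28A2, which encodes a nucleoside transporter, at 7.54 and 48.7 with a peak of 3.74. DNAH3 gained a region at -2118 bp from its listed TSS (4.35), on the same chromosome as but apart from its region with the 8-base unit, and its reads went from 2 to 2876, at least 1037-fold higher. By the reference TSSs, DNAH3 had a promoter peak in both lists. MEST, an imprinted gene, was at 1.4 and 3.20 FPKM with a peak of 3.85, and by the reference TSSs it had a promoter peak in both lists.

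Of the 5 gained genes with the largest mRNA differences, 4 are germ cell genes. MAGEB2, a cancer testis antigen gene on the X chromosome whose promoter sequence is shown above, had 2 reads in Mock and 7686 after DAC (0.0217 and 90.3 FPKM), at least 2772-fold higher against the floor. Its new peak at chrX:30233499-30233708 was 210 bp wide with a fold enrichment of 4.07. TUBA3E and TUBA3D, testis alpha-tubulin genes, went from 0.136 to 48.7 and from 0.153 to 47.3 FPKM. They are near-identical copies, so their separate levels are uncertain. MAEL, which encodes a protein of the piRNA pathway that silences transposons in germ cells, had 0 reads in Mock and 866 after DAC (5.21 FPKM), at least 312-fold higher, with a peak of 3.35 over its CG-rich promoter. PICSAR, a long noncoding RNA gene, had 0 and 188 reads with a weak peak of 2.2 at 1707 bp from its TSS.

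Of the lost genes, 11 were at least 2-fold lower with at least 1 FPKM in Mock. The 5 strongest, ERMARD, AARS, NUDT2, ZNF524 and LARP6, all had a DAC peak over the same region that was listed elsewhere. AARS, which encodes alanyl-tRNA synthetase, was at 153 and 54.8 FPKM. In 4 genes the region itself was gone after DAC, a set named after its values were seen. LOXL1, an elastin crosslinking enzyme gene, was at 11.6 FPKM in Mock and 2.32 after DAC, with a lost peak of 2.24, and EMP3, a membrane protein gene, at 139 and 59.4 with a lost peak of 3.36. ABCC3, a drug efflux pump gene, was at 1.4 and 0.378, and TBC1D3P2, a pseudogene, at 1.95 and 0.894. All 4 lost peaks were below the median of the Mock list, at percentile 42.0 or lower, and by the reference TSSs EMP3, ABCC3 and LOXL1 had a promoter peak in both lists.

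Members of a gene list that were under 0.1 FPKM in Mock passed the filter only through a higher level after DAC, so most lists below are also given for their members at 0.1 FPKM or more in Mock. Over all genes, 979 of 14341 (6.83%) such genes were at least 2-fold higher. Of 35 cancer testis genes past the filter, 26 were at least 2-fold higher and 0 lower, and 20 of the 26 were under 0.1 FPKM in Mock. At 0.1 FPKM or more in Mock, 6 of 15 were higher. Of the 26, 21 had no promoter peak in either list, 2 gained one, 2 lost one and 1 had one in both. MAGEA3, already at 257 FPKM in Mock and at 466 after DAC, lost a weak peak of fold enrichment 3. Of 34 germline genes 23 were higher and 1 lower, 15 of the 23 from under 0.1 FPKM in Mock, and 8 of 19 were higher among the others. Of the 23, 14 had no promoter peak listed and 4 gained one, and by the reference TSSs 4 of the 14 had a peak in both lists. Of 51 histone cluster genes 45 were higher, 36 of 42 among those at 0.1 FPKM or more in Mock, and 18 of the 45 had a promoter peak in both lists. Their gained and lost peaks lie in closely packed promoters, and only 3 of 8 gained regions and 0 of 6 lost regions had no overlap with the other list, as for HIST1H2AE, at 4.88 and 15.4 FPKM.

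Among immune genes, 19 of 42 interferon-stimulated genes were at least 2-fold higher and 0 lower, 13 of 36 among those at 0.1 FPKM or more in Mock, and 10 of the 19 had a promoter peak under both treatments. All 7 promoter peaks gained in this list were new regions, among them that of DHX58, an RNA sensor gene, at 0.109 and 0.729 FPKM with a peak of 2.91, whereas CMPK2 (3.30) stayed at 0 reads and IFI44L at 2 and 10 reads. Of 23 genes of antigen processing 5 were higher (4 of 21 at 0.1 FPKM or more in Mock). Of 24 ligand genes of γδ T and NK cells 3 were higher. At 0.1 FPKM or more in Mock 2 of 23 were (8.70%), against 6.83% of all such genes. A promoter peak in both lists was found for 21 of 25, against 55.2% of all genes. ICAM1, an adhesion molecule of the immune synapse, was at 1.76 FPKM in Mock and 18.2 after DAC, with a peak at -1106 bp in both lists of fold enrichment 3.37 and 3.21. Adhesion and synapse genes as a list had 9 of 29 higher (4 of 23 at 0.1 FPKM or more in Mock), including MCAM (0.580 and 3.42 FPKM, gained peak 2.39) and ITGAM (0.519 and 1.52, gained peak 2.95).

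Among cytoskeletal genes, actin regulators of blood cells were higher in 10 of 18 and lower in 0, and in 4 of 12 at 0.1 FPKM or more in Mock. CORO1A, which encodes coronin 1A, was at 0.262 and 2.30 FPKM with a promoter peak in both lists (3.33 and 2.83). HCLS1, a cortactin-like gene, was at 0.0275 and 0.773 FPKM and had a promoter peak only in Mock (3.15), at 2883 bp from its TSS. FES, a tyrosine kinase gene, was at 0.0743 and 0.607 with a weak gained peak of 2.22 at -2765 bp, and LCP1, which encodes plastin 2, had 0 and 86 reads with a gained peak of 3.28. ARHGAP9, which encodes a GTPase-activating protein, had the strongest gained peak of the list (9.57) and was at 0.0785 and 0.0369 FPKM, so its mRNA was not higher. DAPK3, a kinase gene, was at 15.2 and 27.2 with a peak in both lists (4.60 and 4.82). Of 30 intermediate filament genes, 12 were higher and 3 lower, and 6 of 24 were higher among those at 0.1 FPKM or more in Mock. EVPL, which encodes envoplakin, was at 0.0466 and 1.18 FPKM with a gained peak of 2.23 at -2057 bp. By the reference TSSs EVPL had a promoter peak in both lists. EVPLL had 0 and 9 reads with a gained peak of 2.12. GFAP (2 and 28 reads) and DES (0.987 and 1.02 FPKM) had no promoter peak listed for them, and by the reference TSSs GFAP had one in both lists and DES gained one. TUBE1, a tubulin gene, was at 5.63 and 3.37 FPKM, and its lost peak (8.52) overlapped a DAC peak that was listed elsewhere.

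Epithelial genes were at least 2-fold higher in 15 of 26 and lower in 1, and in 4 of 13 at 0.1 FPKM or more in Mock. All 9 promoter peaks gained in this list were new regions. KRT8 and KRT18, keratins of simple epithelia that were counted with the intermediate filament genes, were at 37.8 and 367 FPKM and at 73.4 and 296. KRT8 had a promoter peak in both lists (5.14 and 4.11), and the gained peak of KRT18 (2.94) overlapped a Mock peak that was listed elsewhere. EPCAM was at 0.0555 and 2.57 with no promoter peak. ELF3, an epithelial ETS factor gene, was at 0.0973 and 0.474 with a gained peak of 2.98. Mesenchymal genes were higher in 9 of 26 and lower in 2 (5 of 22 higher at 0.1 FPKM or more in Mock), and VIM was at 481 and 255 FPKM with a peak in both lists (7.91 and 4.67). Silenced tumour suppressor genes were higher in 7 of 29 and lower in 0 (5 of 26 higher at 0.1 FPKM or more in Mock), and none of the 7 had gained a promoter peak. CDKN2A gained a region (4.60) and was at 24.9 and 17.2 FPKM. Clustered protocadherin genes went the other way in mRNA, with 1 of 45 higher and 9 lower, while 7 of 53 gained and 4 lost a promoter peak, among them PCDHGA1 (1.47 and 0.621 FPKM, gained peak 3.55).

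The remaining lists are given for members at 0.1 FPKM or more in Mock, where 6.83% of all genes were at least 2-fold higher. Higher were 3 of 35 microtubule genes (8.57%), 3 of 16 imprinted genes (18.8%) and 3 of 29 HOX genes (10.3%). So were 19 of 233 zinc finger genes of chromosome 19 (8.15%), 1 of 31 housekeeping genes (3.23%) and 1 of 27 genes of DNA methylation and histone deacetylation (3.70%). RPLP0, a housekeeping ribosomal gene, was at 1277 and 662 FPKM, and its gained peak was a relisted one. Of the genes of DNA methylation and histone deacetylation, 3 of 27 were lower.

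Markers were used to check the line. Blood cell genes passed the filter in 12 of 27, 8 of them higher and 5 of these from under 0.1 FPKM, and PTPRC, the defining leukocyte gene, had 0 reads in Mock and 2 after DAC. Fibroblast and endothelial genes passed in 4 of 15, with 3 higher, and lung lineage genes in 15 of 35, with 5 higher and 3 lower. Peak lists and mRNA of the same label were compared. Of 147 protein-coding genes at 5 FPKM or more in A549 and under 0.1 in the Mock library labelled H1299, 33.3% had a promoter peak in H1299 Mock and 78.2% in A549 Mock, and of 99 genes with the reverse pattern 49.5% and 32.3%. Of 153 such genes of the library labelled H1792, 35.9% had one in H1299 Mock and 59.5% to 68.0% in the other 3 lines. Of 91 genes with the reverse pattern, 41.8% had one in H1299 Mock and 37.4% to 39.6% in the others, a narrower gap.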

How the data were processed

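Omni-ATAC-seq and mRNA-seq of H1299 cells were used, with 1 library for each treatment, and samples were grouped by their labels. For Omni-ATAC-seq, the authors aligned reads to hg19 with BWA 0.7.17-r1188, removed duplicates and mitochondrial reads with Picard 2.21.4 and SAMtools 1.9, called broad peaks per library with MACS2 2.2.5 (no control, broad cutoff 0.1) and annotated each peak with ChIPseeker 1.20.0, per the labels and methods. The deposited lists give for each peak a score, a fold enrichment over background, −log10 p- and q-values, a width, a distance to the TSS and a gene symbol. For mRNA-seq the labels name TopHat2 2.1.1 and the methods another aligner, and the authors deposited FPKM normalized with DESeq2 1.24.0, and in the same table a mean normalized signal per gene and their own fold changes and p-values, which were not used. Measurement columns that matched no sample numbered 0.

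Overlap was counted at 1 bp on 1-based coordinates, and the procedure was tested on simulated peaks with known overlap. Sequences came from the GRCh37 assembly, whose chromosomes match hg19, on the standard chromosomes. Both strands of the central 200 bases were searched for 14 motifs: those of AP-1 (TGANTCA), NF-Y (CCAAT), TEAD (CATTCC), RUNX (TGTGGTT), forkhead factors (TGTTTAC), factors of the GATA family (AGATAA), factors of the SOX family (ACAAAG), Sp and KLF factors (the GC box, GGGCGG), ETS factors (CCGGAAG), basic helix-loop-helix factors (the E-box, CACGTG) and CREB (TGACGTCA), the cores of the CTCF and NRF1 motifs, and the 8-base unit. CACCAATC contains CCAAT, and the motifs were chosen after seeing the data.

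FPKM were compared as log2(FPKM + 0.1) in genes with a mean of at least 0.1, and of genes with the same symbol the most abundant was kept. The reads behind each FPKM were recovered as whole multiples, within 0.05, of the value of 1 read (59735913 reads in Mock and 52634234 after DAC). A gene at 3 reads or fewer was treated as at the floor. Intervals are exact 95% binomial ones and, like the floor, cover counting error only. TSSs of the reference annotation came from a GENCODE lift to GRCh37.

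Named genes are the 10 gained genes with the strongest peak among those 2-fold higher with a DAC FPKM of at least 1, the 5 gained genes with the largest mRNA difference, the 5 lost genes with the strongest peak among those 2-fold lower, the 5 genes with most peaks and the 5 strongest distal peaks of each class, members of gene lists with the strongest gained or lost peak, and genes the study follows. The members and the lists were chosen with earlier results of these data known. Alternatives were a 50% overlap, equal peak numbers, stricter q-values, autosomes, a window of 1000 bp, TSSs of the reference annotation, other pseudocounts, filters and fold limits, and rescaling to a common sum. Python 3.11.15 with numpy 2.4.6, pandas 2.3.3, scipy 1.17.1, pysam 0.24.0 and matplotlib 3.10.9 was used. Some genes and regions that these rules pick are not reported here.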

Additional observations from a re-analysis of the deposited data

Results flagged for a closer look

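Over the 4 lines, the difference in the AP-1 share between the 2000 strongest distal DAC-only and Mock-only regions had opposite signs in H1299 and in the pair labelled CL1-5. It was -10.85 percentage points in H1299 (-19.3 in the libraries labelled PC9 and -2.80 in A549) and 3.10 percentage points in those labelled CL1-5. With 1 pair of libraries in each line the difference between the lines was not tested.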

How the results depend on the processing

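No paired analysis was possible because there is 1 library for each line and treatment. Of 64 alternative values, 21 stayed within the counting interval or 1.5 times the count, 43 moved, and the order of gained and lost promoter peaks turned under 1 of them. The DAC-only share of 49.1% was 56.6% with at least 50% of the peak covered, 39.9% with equal numbers by fold enrichment and with the strongest DAC peaks against the full Mock list, 34.3% with equal numbers by q-value and 33.3% at a q-value under 0.01. The Mock-only share of 28.3% was 33.9%, 39.6%, 39.6%, 33.9% and 15.7% in that order of settings. The Mock list is the shorter one, so the strongest DAC peaks against it repeat the setting of equal numbers by fold enrichment. That repeat is counted among the 64 but is no separate check. For DAC-only peaks, 50% coverage, equal numbers and the q-value limit gave median widths of 405, 364 and 393 bp and distal shares of 87.3%, 92.1% and 85.8%, and equal numbers and the q-value limit gave median fold enrichments of 3.04 and 3.24. A window of 1000 bp gave a distal share of 94.1%. Equal numbers turned 1365 gained and 705 lost promoter peaks into 825 and 1585 and so turned their order.

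Of gained genes, 26.7% were at least 2-fold higher in mRNA. This share was 8.95% with a pseudocount of 1 (4.08% over all genes), 30.6% with 0.01, 18.0% without a filter, 16.7% at a mean FPKM of at least 1 (6.40% over all), 12.5% at a 4-fold limit, 23% with equal peak numbers, 23.5% at the q-value limit, 43.5% by TSSs of the reference annotation and 34.8% in new regions only. Their median log2 difference of 0.30 was 0.15 with a pseudocount of 1, 0.21 without a filter, 0.14 at a mean FPKM of at least 1, 0.21 at the q-value limit, 0.73 by reference TSSs and 0.43 in new regions. In every setting these values were above those over all genes.

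The AP-1 share of DAC-only regions, 6.95%, was 4.20% in the 500 strongest, 5.78% over all, 5.75% when ranked by q-value and 12.6% in windows of 400 bases, with 23.2%, 9.29%, 18.5% and 26.9% in Mock-only regions. The share with CACCAATC, also 6.95%, was 8.70% in the 1000 strongest, 5.06% in the 5000 strongest and 1.98% over all, with 0.900%, 0.940% and 0.785% in Mock-only regions. These motif settings, new regions and the read floor were chosen after seeing the data.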
